A study of Mus musculus with 22 samples.

Results

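The expression of 9 genes of the early complement cascade was followed in astrocyte ribosome-associated mRNA of the mouse optic nerve under raised intraocular pressure (IOP). The genes were C1qa, C1qb, C1qc, C1ra, C1s1, C2, C3, C4b and Serping1. They were taken by gene symbol from the count table, which lists 29367 genes, and all 9 were found and passed the low-count filter in every comparison.

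The libraries came from the optic nerve head (ONH), where axons are unmyelinated, and from the myelinated optic nerve proper (ONP), collected 7 or 30 days after microbeads were injected into the eye to raise IOP. There were 4 ONH and 4 ONP libraries at day 7 and 7 ONH and 7 ONP libraries at day 30, 22 in all. All mice, labelled WT, came from crossing B6J.129(Cg)-Rpl22tm1.1Psam/SjJ with a B6.Cg strain that carries the Cre transgene Tg (GFAP-Cre) 73.12Mvs/J, and were 3 to 4 months old per the study's methods. Per those methods, heterozygous offspring of that cross were bred together, and the mice used were homozygous for the modified Rpl22 allele and carried Cre. Each library held the pooled tissue of 4 mice, 2 of them male. A mouse GFAP promoter drives Cre in these animals, and Cre switches on an HA-tagged ribosomal protein Rpl22, so that tagged ribosomes can be precipitated with their mRNA. The label therefore depends on where Cre has been active, and mRNA of other cells that is carried along in the precipitate is counted too. Uninjured samples were not analysed here, so a difference between days is not a difference from normal tissue. The p-values measure the spread between these pools.

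Complement is a chain of plasma and tissue proteins that marks surfaces for removal. In the classical pathway C1q binds a target, the proteases C1r and C1s attached to it cleave C4 and C2, and the fragments form an enzyme that cleaves C3, whose product coats the target. C1 inhibitor, the product of Serping1, blocks C1r and C1s. In the central nervous system microglia are known as the main source of C1q, while C3 and C4b are commonly followed in reactive astrocytes.

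Marker lists were used to describe which cells the mRNA came from. No input sample was analysed here, so the sums cannot show enrichment or depletion of a cell type. The study reported HA staining in cells with an astrocyte marker and not with markers of other glia. By its RT-qPCR, ONH precipitates of day 7 were enriched over input only for astrocyte markers. All 12 astrocyte markers were present in each group, with Gfap the most abundant. Their summed CPM (counts scaled to the library total, after TMM normalization) had medians of 20056 (ONH, day 7), 20434 (ONH, day 30), 22327 (ONP, day 7) and 30878 (ONP, day 30). Markers of other cells were present as well. None of the 8 oligodendrocyte markers was at 0 in any group, and their sum, led by Mbp, had medians of 22254, 18119, 89544 and 53679 in the same order. The 10 fibroblast and meningeal markers, led by Col1a2, had medians of 1273, 755, 648 and 436. The 8 markers of border macrophages and monocytes, led by Lyz2, had medians of 335, 132, 308 and 133. The libraries thus held astrocyte mRNA together with mRNA that markers of several other cells name.

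Smaller sums came from the remaining lists, in the same order of groups. The 7 endothelial markers (Cldn5 highest) had median sums of 186, 48.1, 121 and 21.5 CPM, and the 7 mural markers (Tagln highest) 741, 354, 178 and 151 CPM. The 6 surface epithelium markers (Krt15 highest) had medians of 22.8, 1.17, 25.9 and 0.934 CPM. The 5 photoreceptor markers (Sag highest) had medians of 579 and 120 CPM in the ONH and of 18.5 and 2.63 CPM in the ONP. The 5 red blood cell markers (Hba-a2 highest) had medians of 179, 234, 138 and 135 CPM. The 5 neutrophil markers were near 0, with a median of 0.511 CPM or less in every group, and S100a8, Retnlg and Ngp were among those listed at 0 in both groups at day 7. Libraries also stood apart in such sums, and 3 of them, picked after their values were seen and with no fixed threshold, were left out together as an alternative. ONH library 6 of day 7 had 2780 CPM of photoreceptor and 2571 CPM of fibroblast markers, ONH replicate 7 of day 30 had 2571 CPM of red blood cell and 4824 CPM of microglial markers, and ONP replicate 7 of day 30 had 6187 CPM of microglial markers. The microglial sum of ONP replicate 5 of day 30 was also high, 4807 CPM, and ONH library 1 of day 7 had 288 CPM of surface epithelium markers against 5.67 to 38.3 CPM in the other 3. These 2 libraries were left out only singly, which changed no count of members called. Without ONP replicate 5 the log2FC of C1qb was -0.64 (days, ONP) and 0.28 (regions, day 30).

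The members differed widely in level and in how far they varied between libraries. C1qb had the highest median level per kilobase of exon, 362 CPM per kb (range 56.8 to 1474), followed by C4b with 194 (133 to 300) and Serping1 with 116 (35.1 to 252). C1qa and C1qc followed with medians of 111 and 88.0 CPM per kb, and C3 and C2 with 22.3 and 5.31. C1ra (1.78) and C1s1 (1.24) were the lowest. Per kilobase, C1qb was the highest member in 13 of 22 libraries, C4b in 8 and Serping1 in 1. The ranges of C1qb, C4b, Serping1, C1qa and C1qc overlapped, so their order changed from library to library. C1qb exceeded C4b per kb in 3 of 4 ONH and 4 of 4 ONP libraries at day 7, and in 3 of 7 in each region at day 30. Between the lowest and the highest library, CPM differed 25.9-fold for C1qb, 46.9-fold for C1qa and 40.2-fold for C1qc, but 2.26-fold for C4b. The plot of the members by library shows this contrast of a wide C1q and a narrow C4b range.

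**Figure D1:**
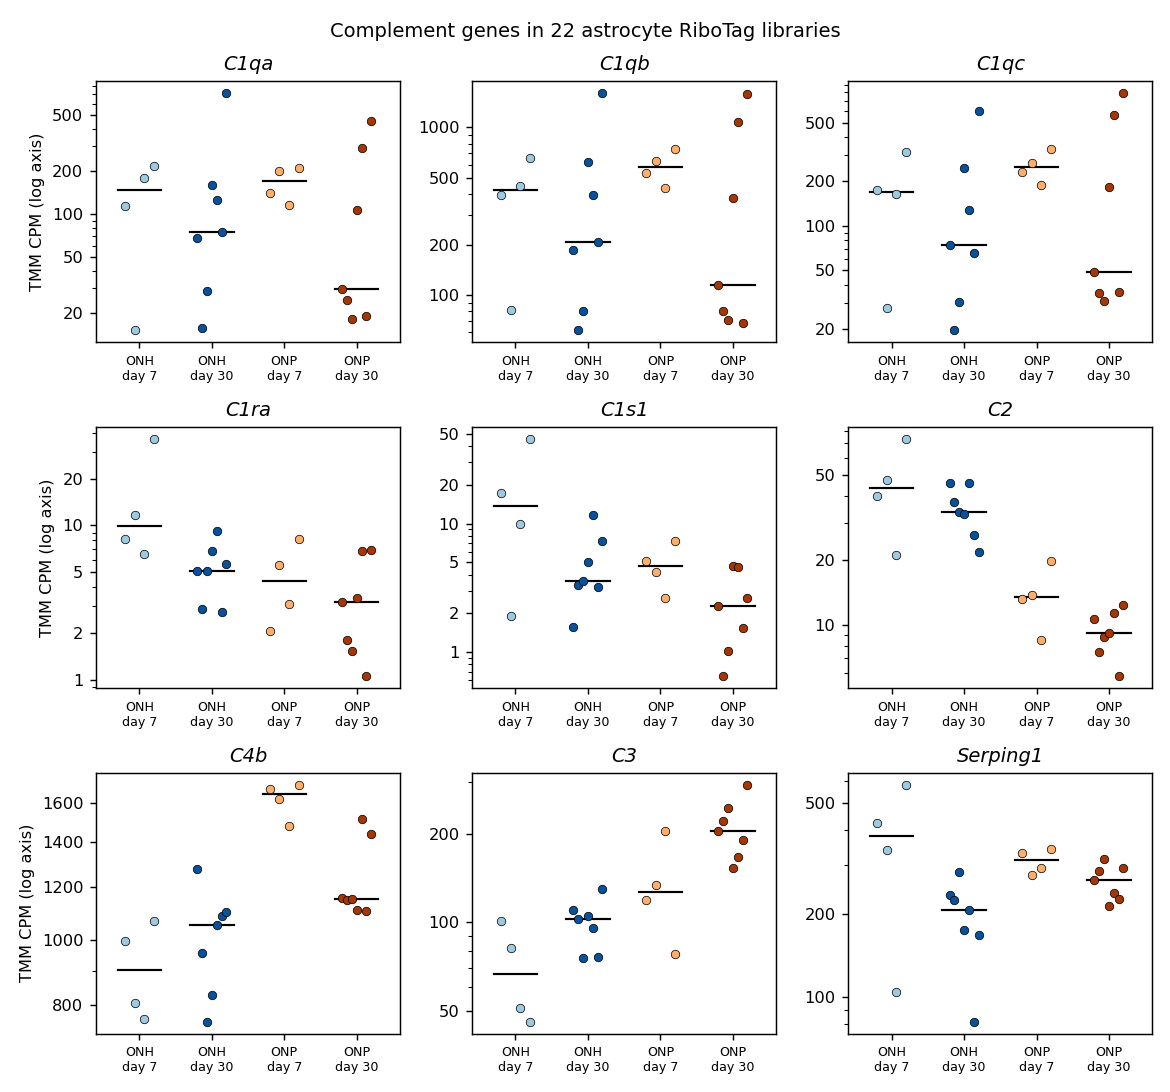
Level of each of the 9 complement genes (CPM after TMM scaling, log axis) in the 4 groups of region and day; each point is 1 library and the bar is the group median. The points of C1qb run from 61.8 to 1604 CPM, those of C4b from 756 to 1707 CPM, and C2 lies higher in the ONH than in the ONP on both days.

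The 4 comparisons of 2 groups were made with edgeR's quasi-likelihood test, with p-values adjusted over all genes tested. Between regions, C2 was higher in the ONH on both days, C3 was lower in the ONH at day 30, and C4b was lower in the ONH at day 7. Between days, C4b fell in the ONP from day 7 to day 30, and 0 members passed in the ONH. No C1q gene passed in any of the comparisons.

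In the ONH, 0 of 9 members were called between day 30 and day 7, where 0.0% of 15668 genes were called. Without adjustment 4 members (C1ra, C1s1, C3 and Serping1) had a p under 0.05, against 13.9% of all genes, and DESeq2 called 1 member, C1ra (log2 fold change, log2FC, -1.55, adjusted p = 0.0453), against 2.49% of genes. In the ONP, 1 of 9 members was called between the days, C4b, against 17.0% of 15491 genes. Without adjustment 4 members of the ONP (C2, C3, C4b and Serping1) passed, against 32.6% of genes, and DESeq2 called C3 and C4b, against 20.2%. Between regions at day 30, 2 of 9 were called (C2 and C3), against 41.8% of 15133 genes, and DESeq2 also called these 2, against 36.8%. Without adjustment 3 passed (C1s1, C2 and C3), against 49.6%. At day 7, 2 of 9 were called between regions (C2 and C4b), against 13.2% of 14752 genes. DESeq2 called 5 there (C1ra, C1s1, C2, C3 and C4b), against 19.0%, and the same 5 had an unadjusted p under 0.05 with edgeR, against 28.9%. With edgeR, the count of members called was thus near or below the share of all genes in 3 comparisons and above it between regions at day 7. The median log2FC of the 9 members was -0.03 in the ONH and -0.36 in the ONP for day 30 against day 7, beside -0.02 and -0.01 over all genes. For the ONH against the ONP it was -0.02 at day 30 and -0.32 at day 7, beside -0.01 and 0.07 over all genes. These comparisons share libraries with one another.

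Whether the change from day 7 to day 30 differed between regions was tested as an interaction over all 22 libraries. With edgeR, 0 of 9 members were called, against 0.543% of 16748 genes, and DESeq2 also called 0, against 2.28%. C4b alone had an unadjusted p under 0.05, against 12.6% of genes. For C4b the ONP change minus the ONH change was -0.59 on the log2 scale (SE 0.20, edgeR adjusted p = 0.184). The fall of C4b in the ONP was therefore not shown to differ from the ONH, where its log2FC was 0.16.

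**Figure D2:**
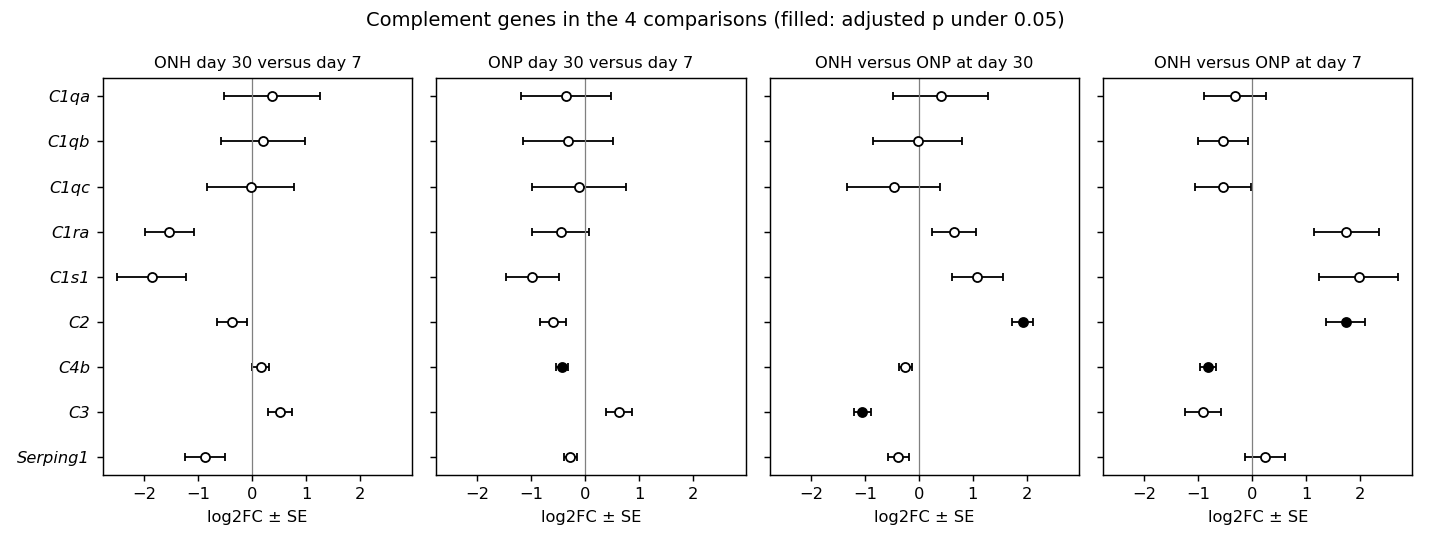
Log2FC of each member with its standard error (bars) in the 4 comparisons of 2 groups; filled points have an edgeR adjusted p under 0.05. Filled points are C2 in both comparisons of the regions (1.93 and 1.73), C3 between regions at day 30 (-1.05), and C4b between regions at day 7 (-0.81) and between days in the ONP (-0.43).

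The recognition subunit C1q is built from the products of C1qa, C1qb and C1qc, which lie side by side on the minus strand of chromosome 4 (GRCm38), C1qb at chr4:136880129-136886187, C1qc at chr4:136889804-136893065 and C1qa at chr4:136895917-136898803. The gap between C1qb and C1qc is 3616 bases and that between C1qc and C1qa 2851 bases. Their annotated transcripts shared no stretch of 31 bases, so reads can be told apart between the chains. Since the chains varied together, the promoters were searched for GAGGAA, a core letter string bound by PU.1, the factor that governs many microglial genes. The RefSeq promoter entries for GRCm38.p6 matched 5 of the 9 members. C1qa, C2, C4b and Serping1 had no entry, so the promoter of C1qa was not searched. GAGGAA was found in the windows of C1qb and C1qc, on either strand, and in 28.3% of all promoter windows. The windows of both chains are shown from 250 bases before the annotated start to 29 bases after it, 5′ to 3′ on the gene's strand, with GAGGAA (C1qb, first base at position -30 from the start) or its reverse complement (C1qc, position -193) in capitals. C1qb is at chr4:136886172-136886450 and C1qc at chr4:136892886-136893164, minus strand.
C1qb: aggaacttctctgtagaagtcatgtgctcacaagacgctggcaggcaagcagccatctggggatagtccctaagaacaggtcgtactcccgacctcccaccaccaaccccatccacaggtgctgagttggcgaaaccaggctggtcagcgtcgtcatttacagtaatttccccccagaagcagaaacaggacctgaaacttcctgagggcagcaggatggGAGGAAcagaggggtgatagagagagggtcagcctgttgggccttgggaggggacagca
C1qc: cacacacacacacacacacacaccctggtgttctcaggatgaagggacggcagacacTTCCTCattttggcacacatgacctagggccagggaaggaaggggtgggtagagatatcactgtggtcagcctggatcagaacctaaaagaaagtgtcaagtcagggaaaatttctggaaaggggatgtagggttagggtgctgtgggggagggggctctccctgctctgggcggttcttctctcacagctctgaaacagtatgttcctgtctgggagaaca
The strings TTCNNNGAA (a STAT element, in 8.3% of windows) and TATAAA (in 13.6%) were not found in either window. Elsewhere among the members, GAGGAA and TTCNNNGAA occurred after the start of C1ra, and TATAAA after the start of C3.

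C1qb ranged more than any difference between the groups. At day 7 the ONH libraries had 394, 81.9, 449 and 654 CPM, and the ONP libraries 532, 627, 433 and 748 CPM. At day 30 the ONH ranged from 61.8 to 1604 CPM (median 206), and the ONP from 68.0 to 1573 CPM (median 115). ONH library 3 of day 7 was low, the ONP libraries at day 7 lay close together, and both day 30 groups ran from below the day 7 values to above them, so all groups overlapped. The coefficient of variation was 23.0% in the ONP at day 7, against 59.9% in the ONH at day 7, 121% in the ONH at day 30 and 126% in the ONP at day 30. Group means were 395 ± 237 (SD, n = 4), 450 ± 545 (n = 7), 585 ± 135 (n = 4) and 481 ± 605 CPM (n = 7) for ONH day 7, ONH day 30, ONP day 7 and ONP day 30. For C1qa the group means were 131 ± 88.2, 169 ± 245, 167 ± 46.1 and 135 ± 171 CPM, and for C1qc 171 ± 118, 167 ± 206, 254 ± 59.7 and 242 ± 310 CPM. No order of the groups can be read from these means, since no neighbours in it differed beyond their spread.

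None of the C1q comparisons passed the test, and their intervals were wide. For C1qb the log2FC of day 30 against day 7 was 0.20 in the ONH (SE 0.78, 95% interval -1.33 to 1.73, edgeR adjusted p = 0.928) and -0.33 in the ONP (SE 0.83, -1.95 to 1.30, adjusted p = 0.820). ONH against ONP gave -0.02 at day 30 (SE 0.83, -1.65 to 1.61, adjusted p = 0.985) and -0.54 at day 7 (SE 0.46, -1.45 to 0.37, adjusted p = 0.476). These intervals reach beyond a 2-fold difference in one direction or both, so differences of that size could not be detected or set aside here. The same 4 comparisons gave C1qa and C1qc values from -0.55 to 0.40 on the log2 scale, the lowest adjusted p being 0.522. The values between days in the ONP depended on the method. With limma-voom and sample quality weights, C1qa, C1qb and C1qc were at -1.82, -1.80 and -1.67 (limma-voom adjusted p = 0.0889, 0.113 and 0.136). With the authors' log2 values they were at -1.34, -1.34 and -1.20. The highest C1q levels in the ONH came from replicate 7 of day 30, with 713 (C1qa), 1604 (C1qb) and 601 CPM (C1qc). Without the 3 libraries that stood apart, an alternative chosen after seeing the data, the log2FC of C1qb was -0.28 (day 30 against 7, ONH), -0.996 (the same in the ONP), -0.18 (regions, day 30) and -0.89 (regions, day 7), and 0 C1q genes were called. With the score of microglial markers as a covariate, C1qa, C1qb and C1qc were called higher in the ONH at day 30, with log2FC of 1.11, 0.80 and 0.42, so the sign for C1qb and C1qc depended on this choice. With the fibroblast score as a covariate, C1qb and C1qc were called lower in the ONH at day 7, at -1.28 and -1.47.

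The shares of the chains ranged less than their sum. The summed level of the chains ranged from 97.4 to 2918 CPM over the 22 libraries (median 677), and its ratio to C4b from 0.102 to 2.65. Of the sum per kilobase, C1qb made up 59.7% to 72.2%, C1qa 14.0% to 27.8% and C1qc 11.6% to 18.8%. The C1qc share was 11.6% to 15.0% in the 7 ONH libraries and 15.7% to 18.8% in the 7 ONP libraries of day 30, without overlap. At day 7 the shares of C1qc overlapped, 12.7% to 16.9% in the ONH and 15.2% to 16.2% in the ONP. This difference was noticed after the values were seen, and it was not tested.

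**Figure D3:**
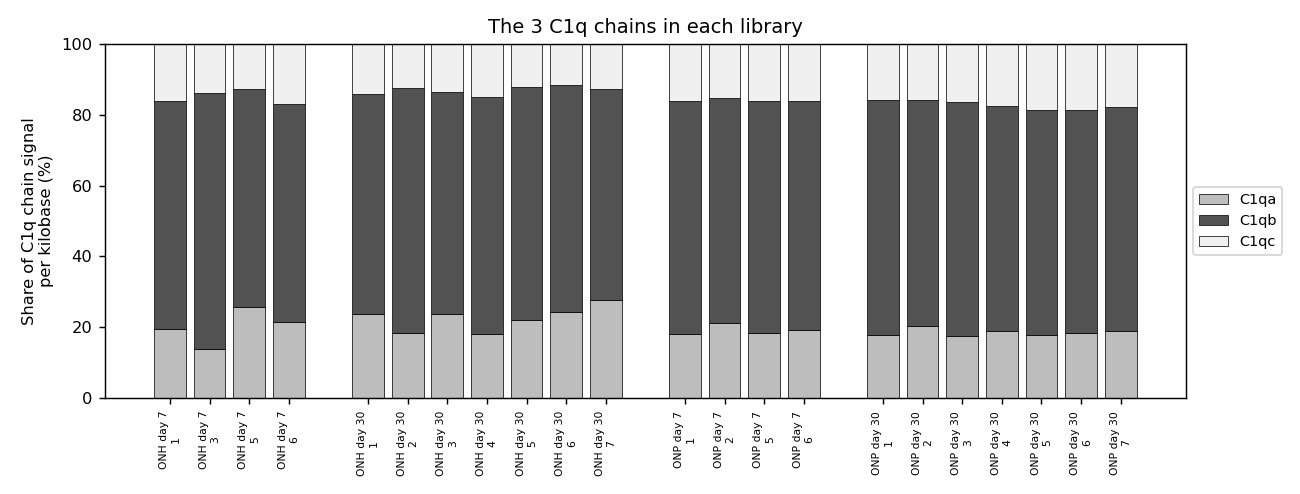
Share of each C1q chain in the summed C1q level per kilobase of exon (percent, stacked to 100) in each of the 22 libraries, grouped by region and day. C1qb makes up 59.7% to 72.2% in all of them, and the C1qc share is smaller in the ONH (11.6% to 15.0%) than in the ONP (15.7% to 18.8%) at day 30.

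Markers of microglia varied together with C1q over the libraries. All 14 microglial markers were present and none was at 0 in any group, with Ctss, a lysosomal protease of microglia, the most abundant. Their sum was 1695, 257, 1373 and 2585 CPM in ONH libraries 1, 3, 5 and 6 of day 7, and 2424, 2821, 2197 and 3592 CPM in ONP libraries 1, 2, 5 and 6. At day 30 it ranged from 285 to 4824 CPM in the ONH (median 597) and from 375 to 6187 CPM in the ONP (median 520). The lowest sum of day 7 came from ONH library 3, which also had the lowest C1qb of that day, and the highest sum of each day 30 group came from replicate 7, which had the highest C1qb. Of these 14 genes, 0 were called between days in either region or between regions at day 7, and 1 was called between regions at day 30 (P2ry12, lower in the ONH). For all 14 the log2FC of the ONH against the ONP was below 0 at day 7, with a median of -0.87 beside 0.07 over all genes, and the groups of 3 did not overlap, a share close to the 21.7% of all genes. In these precipitates, fewer microglia, less C1q mRNA per cell and less microglial mRNA carried along cannot be told apart. The part of carried-along microglial mRNA in the C1q levels was not tested beyond that covariate.

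This relation was measured within the day 30 groups, as 1 of 54 relations of a member to a marker score, with exact two-sided permutation tests over 7 libraries. C1qb followed the microglial score in the ONH with Pearson's r = 0.994 and Spearman's rho = 1 (exact permutation p = 0.000198, the smallest these permutations can give, and 0.000397, adjusted p = 0.00357 and 0.00714), and r was 0.988 without the 2 libraries farthest from the median score. In the ONP r was 0.999 and rho 0.964 for C1qb (exact p = 0.000397 and 0.00278, adjusted p = 0.00357 and 0.0214), and r was 0.997 without the farthest 2. The ONP libraries were unevenly spread, 4 of them from 375 to 520 CPM of microglial markers and 3 from 1606 to 6187 CPM. For C1qa and C1qc, r lay between 0.981 and 0.999 in both regions. Of the 54 relations 11 had an adjusted p under 0.05 for r. These were the 3 C1q genes with the microglial score in both regions, C1ra with that score in the ONP (r = 0.934, rho = 0.964, exact adjusted p = 0.00459 for r), the 3 C1q genes with the astrocyte score in the ONH (r from -0.858 to -0.892) and C1qc with it in the ONP (r = -0.899). The relations with the astrocyte score were weaker without the farthest 2 libraries in the ONH, where r became -0.581, -0.703 and -0.671 for C1qa, C1qb and C1qc.

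C4b, C2, C3 and Serping1 did not show such a relation that passed the test. C4b had r = 0.222 with the microglial score in the ONH (exact permutation adjusted p = 0.700) and 0.856 in the ONP (adjusted p = 0.125), and the latter rests on the 2 farthest libraries, without which r was -0.461. Serping1 had r = -0.245 and -0.164, C2 -0.474 and 0.754, and C3 0.644 and -0.00381 in the ONH and ONP. With the astrocyte score C4b had r = -0.172 and -0.756 (adjusted p = 0.744 and 0.147). The plot against microglial markers shows C1qb along a common line and C4b and C2 without one.

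**Figure D4:**
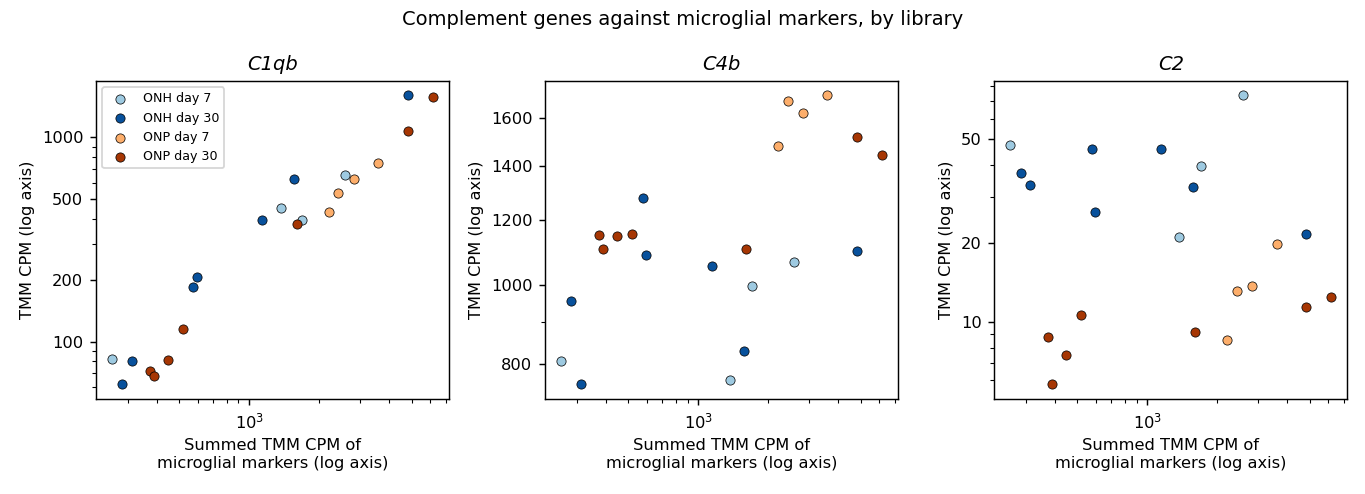
C1qb, C4b and C2 (CPM, log axis) against the summed CPM of 14 microglial markers (log axis); each point is 1 of the 22 libraries, coloured by group. C1qb runs from 61.8 to 1604 CPM along the axis, while C4b stays between 756 and 1707 CPM.

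Over all 22 libraries and 16748 genes, the genes outside the 9 members whose log2 CPM followed C1qb most closely were Ctss (r = 0.993), Slamf9 (0.980), Cd300c2 (0.980), Fcer1g (0.977) and Trem2 (0.975), a microglial surface receptor. Those closest to C4b were Ubash3b (0.901), Sgk2 (0.885), Kif1b (0.881), Tbc1d5 (0.878) and Gm47939 (0.868). Among the members, r with C1qb was 0.988 for C1qa and 0.991 for C1qc, but 0.580 for C1s1, 0.502 for C1ra, 0.433 for C4b, 0.0647 for C2, -0.0713 for C3 and -0.0151 for Serping1. These values describe libraries of 4 groups that share region and day, and carry no test.

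C1ra and C1s1 encode the proteases carried by C1q and lie on chromosome 6, at chr6:124512405-124523443 on the plus strand and chr6:124530345-124542359 on the minus strand, 6901 bases apart. Both were scarce, with 20 to 638 counts of C1ra and 15 to 801 counts of C1s1 per library. C1ra averaged 15.8 ± 14.0 CPM (SD, n = 4) in the ONH at day 7, 5.36 ± 2.25 (n = 7) in the ONH at day 30, 4.74 ± 2.74 (n = 4) in the ONP at day 7 and 3.52 ± 2.42 (n = 7) in the ONP at day 30. C1s1 averaged 18.8 ± 19.2, 5.09 ± 3.40, 4.81 ± 1.93 and 2.48 ± 1.62 CPM in the same groups. The high ONH means of day 7 came largely from library 6, which had 36.6 CPM of C1ra and 45.9 CPM of C1s1, whereas the other 3 libraries had 6.51 to 11.8 and 1.92 to 17.3 CPM. The groups overlapped in every comparison.

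For C1ra the log2FC of day 30 against day 7 in the ONH was -1.54 (SE 0.45, edgeR adjusted p = 0.202) and for C1s1 -1.86 (SE 0.64, adjusted p = 0.248). Without library 6 of day 7 they were -0.72 and -0.93 (adjusted p = 0.549 and 0.635). In the ONP the values were -0.46 (SE 0.53, adjusted p = 0.586) and -0.98 (SE 0.50, adjusted p = 0.190). Between regions at day 30, C1ra had 0.65 (SE 0.41, adjusted p = 0.221) and C1s1 1.09 (SE 0.48, adjusted p = 0.0791). With the replicate number as a block, which is not known to pair the libraries, both were called there. At day 7 the differences were 1.74 (SE 0.60, adjusted p = 0.0828) and 1.97 (SE 0.73, adjusted p = 0.105), and 0.91 and 1.03 without library 6.

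Library 6 also held the highest sum of fibroblast markers, 2571 CPM, and within the ONH at day 30 C1ra and C1s1 had their highest r with the fibroblast score, 0.826 and 0.761 (exact permutation adjusted p = 0.103 and 0.143), which did not pass the test. In the ONP at day 30 r with the fibroblast score was 0.648 and 0.746, and other scores gave larger values, the microglial score 0.934 for C1ra, which passed as given above, and the astrocyte score -0.866 for C1s1 (exact permutation adjusted p = 0.0543). With the microglial covariate the ONH values between days were -1.39 for C1ra and -1.12 for C1s1. The part of fibroblast mRNA in these levels was not tested beyond a fit with the score as a covariate, which called C1s1 higher in the ONH at day 30 (log2FC 1.02, edgeR adjusted p = 0.0268) and C1ra in no comparison. Between days in the ONH that fit gave 0.19 for C1s1 and -0.82 for C1ra (adjusted p = 0.946 and 0.729). The 10 fibroblast markers themselves had a median log2FC of -1.51 there, 9 with an unadjusted p under 0.05 and 0 called. Endothelial, mural, photoreceptor and surface epithelium markers had medians of -1.98, -1.39, -2.01 and -3.99 there, with 0 called. The median of red blood cell markers was 1.65, with 0 called. C1rb and C1s2, near copies of C1ra and C1s1, share 56.9% and 33.5% of the 31-base stretches of those genes. These copies averaged at most 0.0575 and 0.402 CPM in a group, although reads in shared stretches could be assigned to either copy. C1s1 also overlaps the antisense gene Gm16567, and since no use of strand in the counting is given in the sources used here, reads of the 2 genes may not be told apart.

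C2 encodes the protease that joins a fragment of C4 in the enzyme that cleaves C3. It lies in the major histocompatibility region at chr17:34862604-34898265 on the minus strand, 85 bases from Cfb, its counterpart in the alternative pathway. The ONH libraries of day 7 had 39.6, 47.4, 21.2 and 73.6 CPM of C2, and the ONP libraries of that day 13.2, 13.7, 8.53 and 19.9 CPM. At day 30 the ONH ranged from 21.8 to 45.8 CPM (median 33.4) and the ONP from 5.80 to 12.4 CPM (median 9.15). Every ONH library was above every ONP library of the same day, which held for 16.5% of genes in one direction or the other at day 30 and for 21.7% at day 7. C2 was 3.81-fold higher in the ONH at day 30 (log2FC 1.93, SE 0.20, edgeR adjusted p = 3.23e-06) and 3.32-fold higher at day 7 (1.73, SE 0.36, adjusted p = 0.0110).

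C2 was called between regions in all 14 fits that left out a day 30 library, and in all 8 that left out a day 7 library, although with only the 6 day 7 libraries whose column number both regions carry, a choice made after seeing the data, the adjusted p was 0.0733 (log2FC 1.71). The order of group means was ONH day 7 (45.5 ± 21.7 CPM), ONH day 30 (34.8 ± 9.06), ONP day 7 (13.8 ± 4.67) and ONP day 30 (9.40 ± 2.31). Neighbours of one region did not pass the test, with log2FC of -0.37 in the ONH (SE 0.28, edgeR adjusted p = 0.565; -0.049 without library 6 of day 7) and -0.59 in the ONP (SE 0.24, adjusted p = 0.108), and ONH day 30 against ONP day 7 was not tested. The change from day 7 to day 30 differed between regions by -0.22 (SE 0.39, adjusted p = 0.885). Photoreceptor markers were higher in the ONH as well, with 5 of 5 tested called at day 30 and 3 of 4 called at day 7. Of the mural markers, 3 of 6 tested were called higher and 1 lower in the ONH at day 30 (median log2FC 0.73). At day 7, 2 of 7 (Tagln and Acta2) were called higher, with 6 above 0, 1 below 0 and a median of 1.28. Of the 10 fibroblast markers, 1 (Col1a2) was called higher and 1 (Pdgfra) lower in the ONH at day 30 (median log2FC 0.019). At day 7 Col1a2 alone was called, higher, with 9 above 0, 1 below 0 and a median of 1.01. Of the 7 endothelial markers, Kdr alone was called, higher in the ONH on both days. The part of these cells in the C2 difference was not tested beyond a fit with the fibroblast score as a covariate. C2 was called higher in the ONH on both days in that fit. C2 shares 40.2% of its 31-base stretches with the read-through gene Gm20547, which averaged at most 0.184 CPM in a group. It also overlaps Zbtb12 on the opposite strand, with at most 0.256 CPM.

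C4b encodes the mouse C4 protein, whose larger fragment attaches to the target. It lies at chr17:34728380-34743882 on the minus strand, 118721 bases from C2. C4b was the steadiest member, and the highest by CPM in 20 of 22 libraries. The ONH libraries of day 7 had 998, 806, 764 and 1068 CPM, and the ONP libraries 1679, 1625, 1482 and 1707 CPM. At day 30 the ONH ranged from 756 to 1279 CPM (median 1055) and the ONP from 1105 to 1519 CPM (median 1152). At day 7 all ONP libraries were above all ONH libraries, at day 30 the regions overlapped, and in the ONP 1 library of day 30 was above the lowest of day 7.

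C4b was 1.76-fold lower in the ONH than in the ONP at day 7 (log2FC -0.81, SE 0.15, edgeR adjusted p = 0.00554), a call kept in all 8 fits that left out a library but not with only those 6 libraries (-0.75, adjusted p = 0.0513). At day 30 the difference was -0.25 (SE 0.12, adjusted p = 0.120). In the ONP it fell 1.35-fold from day 7 to day 30 (log2FC -0.43, SE 0.11, adjusted p = 0.0207). The log2FC lay between -0.47 and -0.38 in the 11 fits that left out a library, but the adjusted p was 0.0669, 0.0526 and 0.0765 without library 1, 2 or 6 of day 7. It was 0.0528 with no filter beyond 1 count and 0.0736 in 1 fit of all groups, both at -0.40. In the ONH the change was 0.16 (SE 0.16, adjusted p = 0.689). The order of group means was therefore ONP day 7 (1623 ± 100 CPM), ONP day 30 (1233 ± 172), ONH day 30 (1009 ± 178) and ONH day 7 (909 ± 147), of which the first 2 differed in the test, while the other neighbours did not pass it.

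Markers of oligodendrocytes moved in the same direction as C4b in the comparisons where C4b was called. In the ONP 6 of 8 were called lower at day 30 than at day 7, against 17.0% of all genes called. All 8 were called lower in the ONH than in the ONP at day 7, against 13.2%. Their sums there were 18701 to 36161 and 80628 to 108361 CPM. At day 30, where C4b was not called, 7 of 8 were called lower in the ONH, against 41.8%. Between days in the ONH, 4 had a log2FC above 0 and 4 below it (median -0.016), beside 0.16 for C4b. Endothelial markers also moved between days in the ONP, with 4 of 7 called lower at day 30. Of the mural, photoreceptor and surface epithelium markers, 2 of 6, 2 of 4 and 1 of 5 were called lower there, and 0 higher. Of the 12 astrocyte markers, 1 was called higher and 1 lower. Between regions at day 7, 3 of 12 astrocyte markers (Slc1a2, Aqp4 and Atp1b2) were called lower in the ONH, without overlap of the groups, and 0 higher. Of the 12, 7 had a log2FC below 0 and 5 above it, and S100b was higher in every ONH library without being called. The 14 microglial markers had the negative values given above, with 0 called. The part of these cells in the C4b differences was not tested beyond a fit with the microglial score as a covariate. The C4b call between regions at day 7 was kept in that fit. Of the 31-base stretches of C4b, 48.3% are shared with its near copy C4a, which averaged 0.664 to 1.83 CPM in the groups, although shared reads may have been assigned to either copy.

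C3 encodes the central component, whose cleavage all complement pathways lead to, and lies at chr17:57203970-57228136 on the minus strand. The ONH libraries of day 7 had 101, 82.0, 50.9 and 45.8 CPM of C3, and the ONP libraries 119, 134, 204 and 78.0 CPM. At day 30 the ONH ranged from 75.7 to 130 CPM (median 103) and the ONP from 153 to 295 CPM (median 205). At day 30 every ONP library was above every ONH library, while at day 7 the regions overlapped. C3 was 2.06-fold lower in the ONH at day 30 (log2FC -1.05, SE 0.16, edgeR adjusted p = 9.87e-05), a call kept in all 14 fits that left out a library. At day 7 the difference was -0.91 (SE 0.33, adjusted p = 0.0934).

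The change of C3 from day 7 to day 30 was 0.51 in the ONH (SE 0.23, edgeR adjusted p = 0.341) and 0.62 in the ONP (SE 0.24, adjusted p = 0.0889), and the changes differed by 0.11 between regions (SE 0.33, adjusted p = 0.940). Neither change passed with edgeR. DESeq2 called the ONP change (0.65, adjusted p = 0.0411), and edgeR did without library 5 of day 7 (0.90, adjusted p = 0.0235). The ONH change was 0.26 without the 3 libraries that stood apart. Group means stood in the order ONP day 30 (211 ± 48.3 CPM), ONP day 7 (134 ± 52.5), ONH day 30 (99.3 ± 19.1) and ONH day 7 (69.9 ± 26.2), in which neighbours of one region did not pass edgeR's test. At day 30, C2 and C3 thus differed between regions in opposite directions. Of the 12 astrocyte markers, 5 were called lower and 1 higher between regions at day 30 (ONH against ONP), Gfap and Aqp4 being among the 6. Over all 12, the log2FC was below 0 for 7 and above it for 5 (median -0.17). Of the 8 oligodendrocyte markers, 7 were called lower there and 0 higher, with a median log2FC of -0.99. The part of these cells in the C3 difference was not tested.

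Serping1, at chr2:84765387-84775444 on the minus strand, encodes C1 inhibitor, the brake on C1r and C1s. The ONH libraries of day 7 had 424, 340, 105 and 585 CPM, and the ONP libraries 332, 276, 293 and 342 CPM. At day 30 the ONH ranged from 81.6 to 284 CPM (median 207) and the ONP from 214 to 315 CPM (median 264). The ONH of day 7 was the most scattered group, with both the highest library and 1 of the lowest, and all groups overlapped. Means were 363 ± 200 (SD, n = 4), 196 ± 63.9 (n = 7), 311 ± 31.4 (n = 4) and 263 ± 37.5 CPM (n = 7) for ONH day 7, ONH day 30, ONP day 7 and ONP day 30. From day 7 to day 30 the log2FC was -0.87 in the ONH (SE 0.36, edgeR adjusted p = 0.318) and -0.28 in the ONP (SE 0.11, adjusted p = 0.111). The ONH value was -0.55 without library 6 of day 7 and ranged from -1.17 to -0.55 when 1 library was left out. ONH against ONP gave 0.24 at day 7 (SE 0.38, adjusted p = 0.716) and -0.38 at day 30 (SE 0.20, adjusted p = 0.141). The day 30 difference was called with the replicate number as a block, which is not known to pair the libraries. The day 7 value ranged from -0.10 to 0.52 when 1 library was left out, so its sign was not settled.

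Other genes of the pathway were counted from a list of 44, of which 40 were in the count table and 4 (C8a, C9, Fcnb and Colec10) were not analysed here. In the ONP 4 of 26 tested were called lower at day 30 than at day 7 and 0 called higher, while in the ONH 0 of 26 were called with edgeR and 4 had an unadjusted p under 0.05. Between regions, 4 of 24 were called lower in the ONH and 0 higher at day 30, and 2 of 24 were called lower and 0 higher at day 7. The interaction called 0 of 29. The background shares are those given above for the members. The median log2FC of the tested genes was -0.21 (ONH, days), -0.27 (ONP, days), -0.22 (regions, day 30) and -0.05 (regions, day 7).

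Among initiators, Masp1, a protease of the lectin pathway, was called in 3 comparisons. It averaged 3.96 ± 2.25 CPM (SD, n = 4) in the ONH at day 7, 4.09 ± 2.54 (n = 7) in the ONH at day 30, 27.3 ± 5.16 (n = 4) in the ONP at day 7 and 13.1 ± 3.78 (n = 7) in the ONP at day 30. It fell in the ONP by 1.10 on the log2 scale (SE 0.22, edgeR adjusted p = 0.00642) without overlap between the days, against 12.1% of genes that did not overlap there. It was lower in the ONH at day 7 (-2.76, SE 0.40, adjusted p = 0.00157) and at day 30 (-1.63, SE 0.38, adjusted p = 0.00286). Fcna, a recognition protein of the same pathway, fell in the ONP from 5.40 ± 3.50 to 1.06 ± 1.03 CPM (log2FC -2.37, SE 0.64, adjusted p = 0.0260). Cd93, a surface receptor of endothelial and myeloid cells once described as a C1q receptor, fell in the ONP from 6.99 ± 2.08 to 1.19 ± 0.725 CPM (-2.59, SE 0.48, adjusted p = 0.00471), where 4 of 7 endothelial markers were also called lower. In the ONH, Fcna and Cd93 had log2FC of -2.22 and -1.93 between days (adjusted p = 0.256 and 0.243), and their changes were not shown to differ between regions (interaction -0.15 and -0.65, adjusted p = 0.977 and 0.837).

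Regulators were the most abundant of these genes. Clu (clusterin), which blocks the terminal complex, had 5431 ± 1242 and 4938 ± 1463 CPM in the ONH at day 7 and day 30, and 6315 ± 760 and 7393 ± 2032 CPM in the ONP. It was lower in the ONH at day 30 (log2FC -0.55, SE 0.21, edgeR adjusted p = 0.0477). Vtn (vitronectin), another inhibitor of the terminal complex, fell in the ONP from 304 ± 69.9 to 182 ± 30.3 CPM (-0.77, SE 0.16, adjusted p = 0.00866). In the ONH its log2FC was -0.79 (SE 0.39, adjusted p = 0.389), and the interaction was 0.020 (adjusted p = 0.995). Susd4, an inhibitor of the C3-cleaving enzyme, was lower in the ONH at both days, with 3.76 ± 2.24 against 15.6 ± 3.78 CPM at day 7 (-2.04, SE 0.46, adjusted p = 0.0155) and 6.11 ± 3.26 against 22.9 ± 4.06 CPM at day 30 (-1.86, SE 0.31, adjusted p = 0.000216). Its groups did not overlap on either day. Cd55, which speeds the decay of that enzyme, was lower in the ONH at day 30 (-0.66, SE 0.23, adjusted p = 0.0295). Its difference at day 7 was 0.55 (SE 0.53, adjusted p = 0.533), with 20.98 ± 16.2 CPM in the ONH and 14.4 ± 3.91 in the ONP. Between days in the ONH it had -1.46 (SE 0.46, adjusted p = 0.220), and the interaction was 1.201 (SE 0.54, adjusted p = 0.359). The other abundant genes, Cd59a, C1qbp, Cr1l, Itgb2, Colec12 and Itgam, were not called in any comparison, with means over all libraries of 117, 77.6, 55.4, 36.7, 22.2 and 21.8 CPM.

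**Figure D5:**
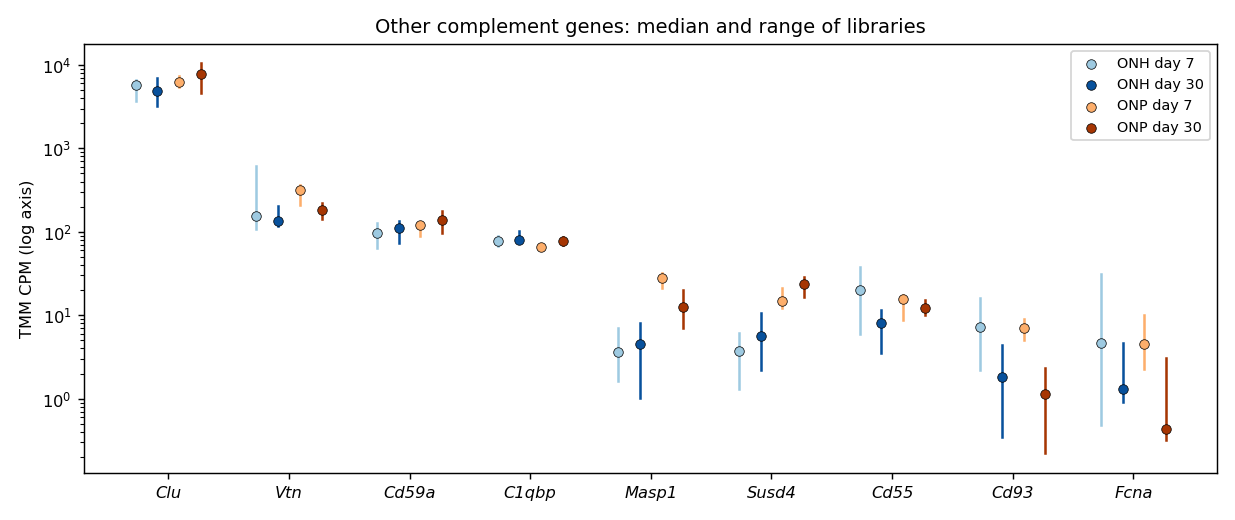
Median (point) and range (line) of CPM, on a log axis, of Clu, Vtn, Cd59a, C1qbp, Masp1, Susd4, Cd55, Cd93 and Fcna in the 4 groups of region and day. Masp1 and Susd4 lie lower in the ONH than in the ONP, and Cd93 lies lower in the ONP at day 30 (median 1.12) than at day 7 (median 7.00).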

How the data were processed

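Per the study's methods, reads were paired, 150 bases each, and were mapped by STAR 2.6.1d and quantified by Salmon 0.14.2 (mm10, Ensembl 94). The authors deposited expected counts for 29367 genes, which were whole and not normalized. Also deposited were log2 values made by the authors with the variance stabilizing transformation of DESeq2 1.34.0, used here only as an alternative. Libraries held 16292489 to 33307092 counts, and 3 counts were taken as the smallest detectable amount, for counting error only. Tests were run on the counts with edgeR 4.0.16 under R 4.3.3 (filterByExpr by group, TMM scaling, quasi-likelihood test, Benjamini-Hochberg adjustment over all genes tested, adjusted p under 0.05). Each comparison used the libraries of its own groups, and the interaction used all 4 groups. The standard error is the log2FC divided by the root of F, and 95% intervals are normal ones. Marker scores are the mean log2 CPM of a list, and permutation tests used SciPy 1.17.1. The members, marker lists and other lists were chosen with earlier results of these data known. Every member was named, and of the other complement genes those called and the 8 highest by mean CPM. A gene of that list and a photoreceptor marker are not reported here. Positions and exon lengths came from GENCODE M21 (29322 of 29367 genes matched). Alternatives were DESeq2 1.42.0, limma-voom (limma 3.58.1), other scalings and filters, 1 fit of all groups, marker covariates, a replicate block and each library left out. Per the study's methods ONH and ONP came from the same mice, but no source used here ties their numbers. Scripts were tested on simulated data.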

Additional observations from a re-analysis of the deposited data

Results flagged for a closer look

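In the ONH at day 30, replicate 7 lay far above the other 6 libraries for all chains of C1q, with 713 CPM of C1qa, 1604 CPM of C1qb and 601 CPM of C1qc. The gap to the next library was 0.793 (C1qa), 0.636 (C1qb) and 0.609 (C1qc) of the whole range of the group, above the limit of 0.568 for 7 libraries. These were the values that stood out among 36 combinations of a member and a group. They come from 1 library and from genes that varied together (r = 0.988 and 0.991 with C1qb over all libraries), so they are not 3 separate events. Chance gives about 1 in 20 such groups where values are normally distributed, which unlogged CPM need not be. The same library had the highest sum of microglial markers in the group (4824 CPM) and of red blood cell markers (2571 CPM). Their part in the C1q values was not tested beyond the fits with the microglial score as a covariate.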

How the results depend on the processing

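C2 (regions, both days), C3 (regions, day 30) and C4b (regions, day 7) passed under every alternative run, except at day 7 on the 6 libraries below, where C2 missed without the block (adjusted p = 0.0733) and C4b missed with and without it. The C4b fall in the ONP did not with no filter beyond 1 count (0 called) or 1 fit of all groups (0 called), and DESeq2 called 2 there. In the ONH between days DESeq2 called 1, and between regions at day 7 it called 5. Between regions at day 30, limma-voom called 4 and the microglial covariate 7. At day 7, 1 fit of all groups called 4 (C1ra, C2, C3 and C4b), and the fibroblast covariate 4, with C1qb at -1.28 and C1qc at -1.47. Leaving out 1 library gave 0 to 0 calls (ONH, days; interaction), 0 to 3 (ONP, days; C2, C3 and C4b without ONP library 5 of day 7), 2 to 4 (regions, day 30; C1s1 and C4b added without ONH replicate 1, C1s1 also without ONP replicate 4) and 2 to 3 (regions, day 7; C1s1 added without ONH library 3). With the 3 libraries that stood apart left out, chosen after seeing the data, calls were 0, 1, 2, 2 and 0. With the replicate number as a block at day 30, 5 members were called (C1ra at 0.82, C1s1 at 1.12, C2, C3 and Serping1 at -0.44), with 6717 of 15133 genes. The numbers were not taken as pairs, since no source used here ties those of the regions. Same-numbered libraries deviated together with r from 0.0767 to 0.471, over 0.1 in 5 of 7, and 3 of 7 matched their own number best. These values are all positive and do not settle whether equal numbers are pairs. At day 7 the columns of both regions carry the numbers 1, 5 and 6, which differ from those in the labels (r from 0.0117 to 0.146, 2 of 3 matching best). In fits of these 6 libraries, chosen after seeing the data, 0 members were called without a block and 3 with the replicate block (C1ra at 1.77, C1s1 at 2.15 and C2 at 1.63); C4b was -0.76 (edgeR adjusted p = 0.0533), C1qa 0.16 without and 0.15 with the block, and Serping1 -0.063 with it.

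Scaling by library size only moved the median log2FC of all genes by 0.11 (ONP, days), 0.11 (regions, day 7) and 0.15 (interaction), and the share of higher genes among calls from 45.9% to 66.7% and from 48.2% to 62.4% in the first 2; C4b was then at -0.32 and -0.69 (adjusted p = 0.0497 and 0.0126). The other differences whose sign turned had not passed edgeR's test without covariates. In the ONH between days these were C1qa (-0.10 with the authors' log2 values, -0.41 without the 3 libraries), C1qb (-0.076 with limma-voom, -0.29 with log2 values, -0.28 without the 3 libraries), C1qc and C1s1 (1.41 and 0.19 with the fibroblast covariate) and C2 (0.019 without the 3 libraries). In the ONP between days, C1qc was 0.12 and 0.13 with the microglial and fibroblast covariates and C1ra 0.022 with the former. Between regions at day 30, C1qa was -0.029 without the 3 libraries, C1qb 0.89 (limma-voom), 0.80 (microglial covariate, called), 0.24 (replicate block) and 0.22 (log2 values), and C1qc 0.46 (limma-voom) and 0.42 (microglial covariate, called). At day 7 the microglial covariate gave C1qa 0.82, C1qb 0.37 and C1qc 0.43, and Serping1 was -0.10 without library 6. For the interaction C1qc was 0.077 (library size) and 0.16 (microglial covariate), and C1s1 -0.24 (limma-voom) and -0.31 (fibroblast covariate).

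Leaving out 1 library also turned signs. The ranges between days were -0.74 to 0.70 (C1qa), -0.61 to 0.54 (C1qb) and -0.86 to 0.44 (C1qc) in the ONH, and -0.79 to 0.079 (C1qc) in the ONP. Between regions they were -0.75 to 1.11 (C1qa), -0.87 to 0.65 (C1qb) and -1.33 to 0.21 (C1qc) at day 30, and -0.66 to 0.047 (C1qa) and -0.10 to 0.52 (Serping1) at day 7. For the interaction they were -1.43 to 0.38 (C1qa), -1.19 to 0.28 (C1qb), -0.76 to 0.74 (C1qc), -0.042 to 1.26 (C1s1), -0.52 to 0.068 (C2) and -0.085 to 0.40 (C3). The causes were not tested. Every library had at least 324 counts of each C1q chain.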
